A study of Homo sapiens with 4 samples.

Results

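The mesenchymal transition genes examined here are 10 members chosen by name: the transcription factors SNAI1, SNAI2, ZEB1, ZEB2, TWIST1, TWIST2 and PRRX1, and the marker genes CDH2, VIM and S100A4. All 10 were found by symbol, each in a single row, among the 58229 genes of the table. RNA sequencing was done on CD31+ cells at day 8 of hematopoietic differentiation, after activin A and BMP4 followed by VEGF and bFGF. The starting cells were H1, a long-established line of human embryonic stem cells. The HAND1_OE group (2 libraries) held H1 cells made to overexpress HAND1, a basic helix-loop-helix transcription factor, and the Control group (2 libraries) held H1 cells that were not. The study's scheme shows doxycycline given or withheld over the last days before harvest. The labels do not say whether Control cells carried the construct or received doxycycline, how many clones were used, or whether replicates were separate cultures, so p-values measure only the spread between these libraries.

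An endothelial or epithelial cell that turns mesenchymal loses its junctions, changes its cadherins and intermediate filaments and gains the ability to move. Factors of the SNAI and ZEB families are zinc finger repressors of junction genes such as CDH1 that bind E-box motifs of the kind CAGGTG. TWIST1 and TWIST2 are basic helix-loop-helix factors, like HAND1, and PRRX1 is a homeobox factor of mesenchyme. CDH2 (N-cadherin), VIM (vimentin) and S100A4 (a calcium-binding protein also named FSP1) are the classic markers of the mesenchymal side, although early blood cells also make VIM, ZEB2 and S100A4. The question here was whether the factors and markers moved together when HAND1 was forced on in CD31+ cells.

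Levels are given in FPKM, fragments per kilobase of transcript scaled to the mapped fragments of the library, a unit the table does not state and that was taken from the study's plot of these cells. FPKM summed to between 536284 and 606609 in a library, 13989 to 14542 genes reached 1 FPKM, and the counts behind the values are unknown. HAND1 was at 12.1 and 14.3 FPKM in the Control libraries, against 520.5 and 517 FPKM in HAND1_OE, which fits the labels (introduced and endogenous transcripts cannot be told apart). PECAM1 encodes the CD31 that defined the cells, so its presence in every library follows from the selection. It was at 95.5 and 141 FPKM in the Control libraries, against 92.0 and 160.2 FPKM in HAND1_OE. CDH5 (VE-cadherin), an endothelial gene, was also present, at 261 and 222 FPKM against 257 and 280.2 FPKM.

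The members tested were split in direction, and 1 of them passed the test. Fold changes are differences of log2(FPKM + 1), HAND1_OE minus Control, which understate the change of low genes. A gene was tested when it had at least 1 FPKM in at least 2 libraries, which 8 members passed and TWIST2 and PRRX1 did not. Of these 8, 4 had a positive and 4 a negative log2 fold change, with a median of 0.00109, beside a median of -0.0777 over all 14622 genes tested. At an adjusted p under 0.05 over all genes tested (limma), 0 members were called higher and 1, S100A4, was called lower, where 2.04% of all genes tested were called higher and 2.11% lower. Before adjustment, p was under 0.05 for SNAI1 on the higher side and for ZEB2 and S100A4 on the lower side. The groups did not overlap for 4 of the 8: SNAI1 and VIM were higher in each HAND1_OE library than in any Control library, and ZEB2 and S100A4 were lower. These counts of 2 upward and 2 downward stand beside 16.2% of all genes tested that lay apart upward and 30.1% downward, and nothing particular to the members is read from them. The other 4 members tested overlapped between the groups.

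**Figure D1:**
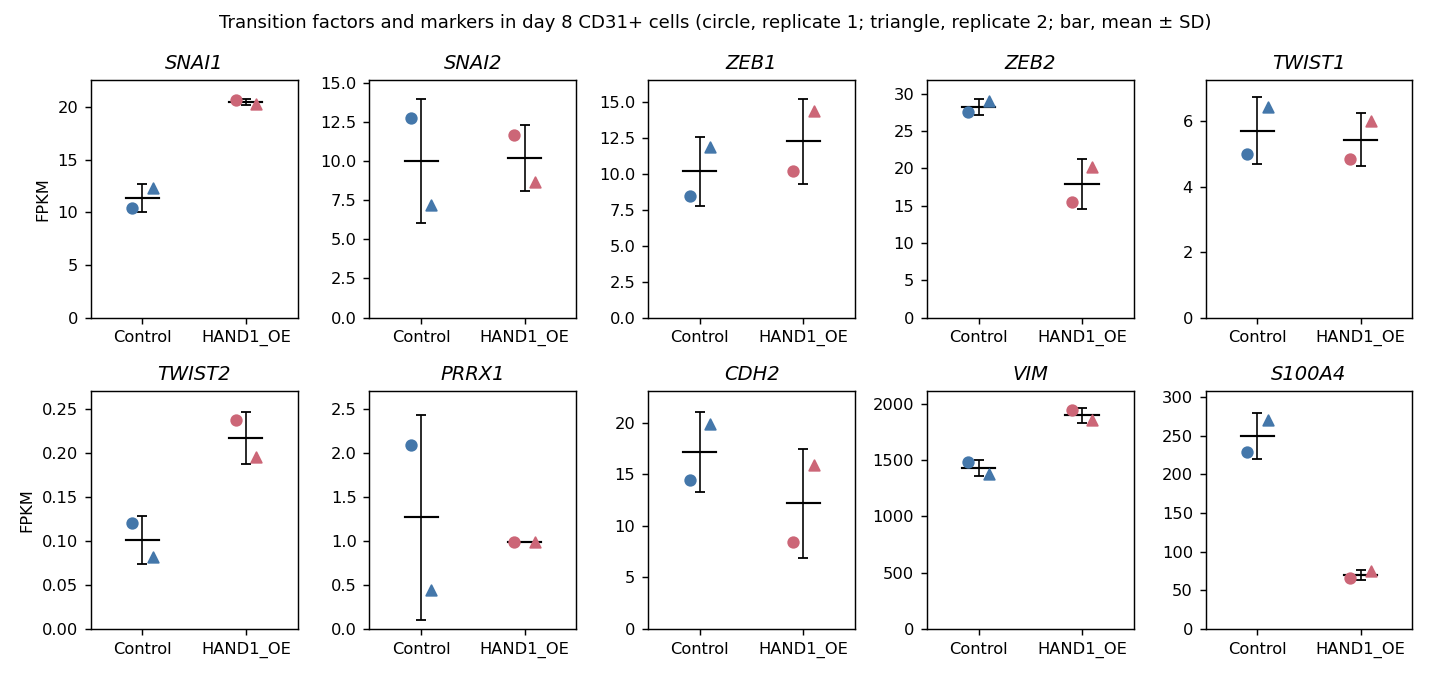
FPKM (linear axes from 0) of each of the 10 members in the 2 Control and 2 HAND1_OE libraries, with circles for replicate 1, triangles for replicate 2 and bars for the mean ± SD. S100A4 drops from 229 and 271 to 65.7 and 74.6 FPKM, SNAI1 and VIM are higher in both HAND1_OE libraries, ZEB2 is lower in both, and SNAI2, ZEB1, TWIST1 and CDH2 overlap.

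SNAI1 encodes Snail, a repressor that acts early when mesoderm forms. It was at 10.4 and 12.3 FPKM in the Control libraries, against 20.7 and 20.3 FPKM in HAND1_OE. Both HAND1_OE libraries were above both Control libraries by more than the replicates of either group differed. Its log2 fold change was 0.81 (95% interval 0.42 to 1.2) with a limma adjusted p = 0.0568, just short of the threshold, and among the 299 genes called higher 296 had a larger fold change. It passed after quantile normalization (limma adjusted p = 0.0456) and median-ratio scaling (0.0449), and among the settings with no block it otherwise did not. SNAI1 lies on chromosome 20 from 49982999 to 49988886 (ENSG00000124216.3, GRCh38).

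SNAI2 encodes Slug, the closest relative of Snail in this list. It was at 12.8 and 7.20 FPKM in the Control libraries, against 11.7 and 8.69 FPKM in HAND1_OE. The replicates of each group differed by more than the group means did, and the group values interleaved. Its log2 fold change was 0.06 (95% interval -0.67 to 0.79, limma adjusted p = 0.952). SNAI1 minus SNAI2, as a difference of log2 levels within each library, was -0.27 and 0.69 in Control and 0.77 and 1.14 in HAND1_OE. These values did not overlap, but with 2 libraries in each group an exact permutation test cannot go below p = 0.333, and this pair was chosen after its values were seen.

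ZEB1 and ZEB2 encode large repressors that share their zinc finger and homeodomain plan. ZEB1 (chromosome 10, 31318495 to 31529814) was at 8.49 and 11.9 FPKM in the Control libraries, against 10.2 and 14.4 FPKM in HAND1_OE. Its log2 fold change was 0.25 (95% interval -0.35 to 0.85, limma adjusted p = 0.706). Its groups overlapped, with replicate 2 the higher library of each. ZEB2 (chromosome 2, 144364364 to 144524583), which blood progenitors also need, was at 27.5 and 29 FPKM in the Control libraries, against 15.5 and 20.2 FPKM in HAND1_OE. Both HAND1_OE libraries were below both Control libraries, with a log2 fold change of -0.65 (95% interval -1.09 to -0.20) and a limma adjusted p = 0.140. ZEB1 minus ZEB2 was -1.59 and -1.22 in Control and -0.56 and -0.47 in HAND1_OE on the log2 scale, so ZEB2 exceeded ZEB1 in all 4 libraries and by less in HAND1_OE (difference 0.89, exact permutation p = 0.333, the smallest the design allows). This pair too was chosen after its values were seen.

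Antisense transcripts lie across the starts of ZEB1 and VIM. For ZEB2 the antisense transcript lies inside the gene span, across the RefSeq start used for E-boxes below. ZEB2-AS1 was at 3.95 and 3.0 FPKM in the Control libraries, against 1.74 and 0.914 FPKM in HAND1_OE (log2 fold change -0.96, limma adjusted p = 0.128). ZEB1-AS1 was at 5.88 and 5.47 FPKM against 5.02 and 4.96 FPKM (log2 fold change -0.15, limma adjusted p = 0.733), and VIM-AS1 was under 1 FPKM in every library. Whether the counting used strand is not given in the sources used here, so reads where these genes overlap their partners cannot be told apart.

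TWIST1, a factor of cranial and cardiac cushion mesenchyme, showed little difference in level. It was at 4.98 and 6.44 FPKM in the Control libraries, against 4.85 and 6.0 FPKM in HAND1_OE, with a log2 fold change of -0.06 (95% interval -0.56 to 0.44, limma adjusted p = 0.930). That sign turned in some settings and holds no direction. TWIST2 was at 0.121 and 0.0822 FPKM in the Control libraries, against 0.238 and 0.196 FPKM in HAND1_OE, and PRRX1 at 2.09 and 0.444 FPKM against 0.986 and 0.991 FPKM. Both are too low for the filter: TWIST2 stayed under 1 FPKM throughout, and PRRX1 passed 1 FPKM in 1 Control library alone, with its HAND1_OE values between the 2 Control values.

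CDH2, the cadherin that takes over when epithelial cells become mesenchymal, was not called in either direction. It was at 14.4 and 19.9 FPKM in the Control libraries, against 8.43 and 15.9 FPKM in HAND1_OE. The groups overlapped, and replicate 2 was the higher library of each. The log2 fold change was -0.51 (95% interval -1.30 to 0.28, limma adjusted p = 0.509), and it was -0.09 without HAND1_OE replicate 1 and -0.93 without HAND1_OE replicate 2. CDH1 (E-cadherin), its epithelial counterpart, was at 1.41 and 3.13 FPKM in the Control libraries, against 1.01 and 4.29 FPKM in HAND1_OE, also without separation (log2 fold change 0.05, limma adjusted p = 0.980).

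The balance between cadherins was then read within each library. CDH2 minus CDH1, on the scale of log2(FPKM + 1), was 2.68 and 2.34 in Control and 2.23 and 1.67 in HAND1_OE, so CDH2 exceeded CDH1 in all 4 libraries. The difference of the means was -0.56 (exact permutation p = 0.333, the smallest the design allows). The groups overlapped with a pseudocount of 0.1 and after rescaling to equal totals (exact permutation p = 0.667 in each), and the difference was -0.28 without HAND1_OE replicate 2 and -0.84 without HAND1_OE replicate 1. CDH1 was at 1.01 to 4.29 FPKM, and no direction is read from this ratio. CDH2 minus CDH5, the endothelial cadherin, was -4.08 and -3.41 in Control and -4.77 and -4.06 in HAND1_OE, and these overlapped (difference -0.67, exact permutation p = 0.667). That difference ran from -0.31 without HAND1_OE replicate 1 and -0.33 without Control replicate 2 to -1.03 without HAND1_OE replicate 2. Among the 9 cadherins listed, 6 were tested and 0 called (1 upward at an unadjusted p under 0.05, by limma). Over all genes tested 2.04% were called higher and 2.11% lower. Of the cadherins 1 lay apart between groups: CDH11, a cadherin of mesenchyme, at 64.5 and 68.5 FPKM in the Control libraries, against 115 and 186 FPKM in HAND1_OE (log2 fold change 1.13, limma adjusted p = 0.0775). CDH11 is named after its values were seen, and 16.2% of all genes tested lay apart upward.

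**Figure D2:**
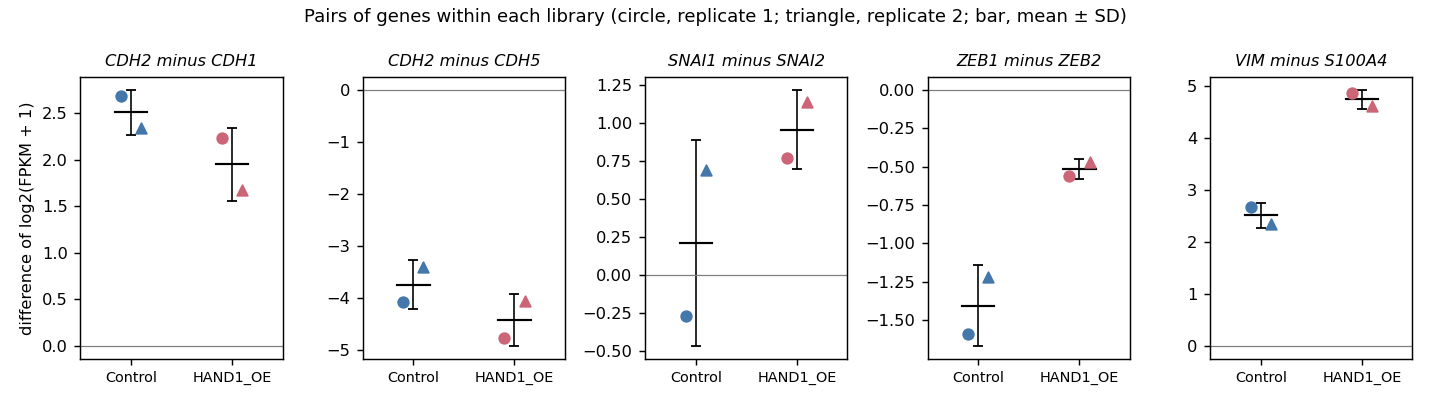
Difference of log2(FPKM + 1) between 2 genes of the same library, for 5 pairs, with circles for replicate 1, triangles for replicate 2 and bars for the mean ± SD, and each panel on its own axis. VIM minus S100A4 is higher in HAND1_OE (4.87 and 4.61 against 2.68 and 2.34), and CDH2 minus CDH1 lies close between the groups (2.23 and 1.67 against 2.68 and 2.34).

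VIM, the intermediate filament protein of mesenchymal and also of endothelial cells, had the highest level of the members in every library. It was at 1480 and 1377 FPKM in the Control libraries, against 1944 and 1852 FPKM in HAND1_OE, and 99.7% of genes tested had a lower mean level. Both HAND1_OE libraries were above both Control libraries, 1.33 times higher in the mean. The log2 fold change of 0.41 (95% interval -0.05 to 0.87) did not pass (limma adjusted p = 0.347). The bases before its start (RefSeq, chr10:17227991-17228240, GRCh38.p14, plus strand) are shown because VIM dominates the members' level. They hold neither CAGGTG nor CACCTG, so nothing is in capitals:
VIM: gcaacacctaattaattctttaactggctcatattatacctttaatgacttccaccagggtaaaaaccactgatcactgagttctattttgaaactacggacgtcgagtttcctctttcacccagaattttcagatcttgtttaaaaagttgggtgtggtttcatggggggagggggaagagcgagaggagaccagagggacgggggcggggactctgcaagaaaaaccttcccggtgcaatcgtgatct

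S100A4 was the single member past the threshold, and it fell. It was at 229 and 271 FPKM in the Control libraries, against 65.7 and 74.6 FPKM in HAND1_OE. The lowest Control library was above the highest HAND1_OE library, and the Control mean was 3.57 times the HAND1_OE mean. The log2 fold change was -1.82 (standard error 0.165, 95% interval -2.23 to -1.41) with a limma adjusted p = 0.00851, and 128 genes tested had a more negative fold change, 109 of them called. With every gene above 0 tested, the fold change was the same but the limma adjusted p was 0.153, and in that setting 0 genes were called in all. VIM minus S100A4 was 2.68 and 2.34 in Control and 4.87 and 4.61 in HAND1_OE. The difference of 2.23 is mostly the fall of S100A4 itself (-1.82), with a smaller part from VIM (0.41, not called). The pair was chosen after its values were seen.

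S100A4 (ENSG00000196154.11) lies on chromosome 1 from 153543613 to 153550136, on the minus strand in the S100 gene cluster. The span also encloses S100A3 (153547329 to 153549372, same strand), whose reads may be hard to separate from it. S100A3 was at 1.87 and 2.16 FPKM in the Control libraries, against 3.81 and 3.95 FPKM in HAND1_OE, the opposite direction (log2 fold change 0.70, limma adjusted p = 0.121). Part of the RefSeq promoter window of S100A4 (chr1:153545886-153546056, GRCh38.p14, minus strand) is shown because it holds an E-box of the SNAI and ZEB kind, in capitals. The first base of the E-box is 164 bases before the RefSeq start, which lies inside the gene span given above. Bases nearer the start are left out because they overlap an annotated exon or untranslated region:
S100A4: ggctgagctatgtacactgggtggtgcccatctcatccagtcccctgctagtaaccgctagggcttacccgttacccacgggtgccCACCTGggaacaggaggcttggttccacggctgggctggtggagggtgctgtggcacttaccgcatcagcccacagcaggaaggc

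E-boxes were counted in windows from 250 bases before to 50 after each RefSeq start. CAGGTG and CACCTG are the same motif read on opposite strands, and both belong to the wider CANNTG that TWIST and HAND factors can bind. Of the 10 members 7 had a window, and SNAI1, SNAI2 and TWIST1 had none. These 7 members had 14 windows, 7 of them at starts of ZEB1. CAGGTG or CACCTG was in 3 of the 14, 2 of ZEB1 and 1 of S100A4, while 20.6% of all 35116 windows hold it. CANNTG was in 7 of the 14, and 68.7% of all windows hold it. ZEB2, whose level was also lower in both HAND1_OE libraries, held CACATG but neither CAGGTG nor CACCTG. A match is a description of the letters and not evidence of binding.

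**Figure D3:**
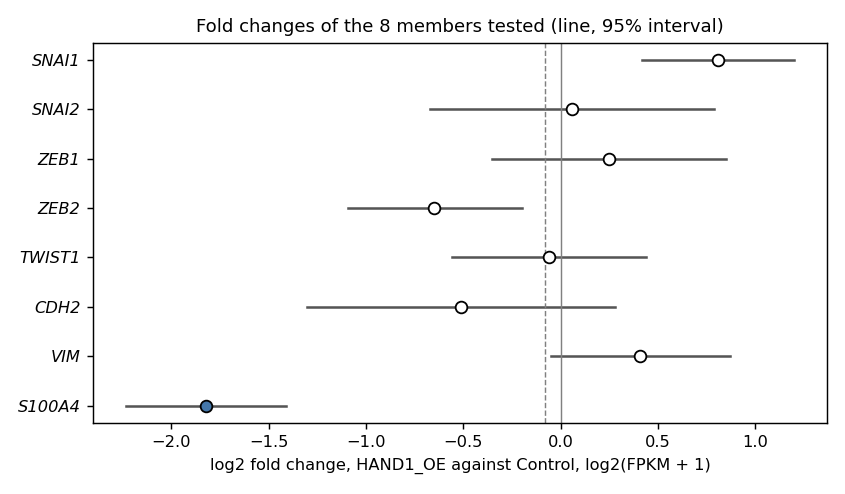
Log2 fold change (HAND1_OE against Control, log2(FPKM + 1)) of the 8 members tested, with lines for the 95% interval of limma, a filled point where the adjusted p is under 0.05, a solid line at 0 and a dashed line at the median of all genes tested (-0.0777). S100A4 at -1.82 is the filled point; the intervals of SNAI1 (0.42 to 1.2) and ZEB2 (-1.09 to -0.20) lie on opposite sides of 0.

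The order of mean levels among the members differed between the groups. In Control it ran VIM, S100A4, ZEB2, CDH2, SNAI1, ZEB1, SNAI2, TWIST1, PRRX1 and TWIST2, and libraries of neighbours overlapped for SNAI1 with ZEB1 and for ZEB1 with SNAI2. In HAND1_OE it ran VIM, S100A4, SNAI1, ZEB2, ZEB1, CDH2, SNAI2, TWIST1, PRRX1 and TWIST2, and ZEB1 overlapped CDH2 and CDH2 overlapped SNAI2. SNAI1 thus stood in the fifth place in Control and the third in HAND1_OE, but no member whose place changed was called. FPKM are per length, so these levels can be set side by side roughly, and less safely where genes overlap others. Replicate 2 was above replicate 1 in both groups for ZEB1, ZEB2, TWIST1, CDH2 and S100A4, and below it in both for SNAI2, TWIST2 and VIM.

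Other factors linked to the transition, not all of them drivers of it, gave 0 calls by limma. Of 20 listed, 18 were tested, with 3 upward and 4 downward at an unadjusted p under 0.05. Their fold changes were 8 positive and 10 negative with a median of -0.0467, and 5 lay apart upward and 5 downward. Over all 14622 genes tested 5663 were positive, 16.2% lay apart upward and 30.1% downward, and 2.04% were called higher and 2.11% lower. An unadjusted p under 0.05 (limma) was reached by 997 genes upward and 1554 downward. The partners and inhibitors of the SNAI, ZEB and TWIST factors, such as corepressors, ID proteins and catenins, likewise had 0 called of 20 (0 upward and 3 downward at an unadjusted p under 0.05), with a median of -0.0662. The list of TGF-beta inputs is mixed, with ligands, receptors, inhibitors and some Notch and Wnt genes. Of 19 tested 17 were positive, 7 lay apart upward and 1 downward, and the median was 0.182. The gene apart downward was SMAD7, an inhibitor of the pathway (log2 fold change -0.51, limma adjusted p = 0.217). Some positive values were small, as for TGFB1 (0.11) and TGFBR2 (0.02). No direction of signalling is read from this list. The 2 inputs called were WNT5A, a noncanonical Wnt ligand, from 1.88 and 1.78 to 13.9 and 18.3 FPKM (log2 fold change 2.59, limma adjusted p = 0.00700), and SMAD3, which carries the TGF-beta signal to the nucleus, from 5.40 and 6.68 to 13 and 13.7 FPKM (1.03, limma adjusted p = 0.0379).

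Genes of the mesenchymal matrix and surface, which the transition factors are known to act upstream of, leaned upward. Of 30 effectors tested 9 were called higher and 0 lower, and 20 lay apart upward and 5 downward. Over all genes tested 2.04% were called higher and 2.11% lower, and 16.2% lay apart upward and 30.1% downward. The median log2 fold change of the effectors was 0.63, beside -0.0777 for all genes tested. This list was chosen with earlier results of these data known. The largest changes were those of TGFBI, a matrix protein induced by TGF-beta, from 36.7 and 26.7 to 224 and 192 FPKM (log2 fold change 2.69, limma adjusted p = 0.00700), PDGFRB, a receptor of mural cells (2.03, limma adjusted p = 0.0164), and POSTN, a matricellular protein (1.97, limma adjusted p = 0.00900). FN1, fibronectin, rose from 574 and 541 to 1613 and 1266 FPKM (1.36, limma adjusted p = 0.0280). Levels summed over the 32 listed effectors were 3332 and 3343 FPKM in Control and 6444 and 6345 FPKM in HAND1_OE. FN1, SPARC (505 and 594 to 1450 and 1387 FPKM) and MMP14 (435 and 442 to 792 and 861 FPKM) weigh most in these sums. The 5 effectors apart downward included COL1A2, from 154 and 141 to 68.6 and 101 FPKM (-0.82), and NT5E, from 17.8 and 21.0 to 4.69 and 10.9 FPKM (-1.31). Neither was called.

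Contractile genes, which mark smooth muscle and myofibroblasts, had 1 of 9 tested called, where 2.04% of all genes tested were called higher. It was TPM1, a tropomyosin, from 73.9 and 61.6 to 161 and 151 FPKM (log2 fold change 1.2, limma adjusted p = 0.0220). ACTA2, smooth muscle actin, was at 74.1 and 72.2 FPKM in the Control libraries, against 84.3 and 76.2 FPKM in HAND1_OE (0.13, limma adjusted p = 0.739), and TAGLN at 30.4 and 17.7 FPKM against 15.9 and 18.5 FPKM (-0.42, limma adjusted p = 0.527). The median of the list was 0.00632, and MYH11, a defining smooth muscle gene, was at or under 0.0157 FPKM in every library.

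Among relatives of VIM and S100A4, S100A4 was alone in falling past the threshold. Of 13 tested S100, lamin, keratin and other intermediate filament genes 4 were called higher and 0 lower. Of these 13, 10 lay apart upward and 1 downward, and the median was 0.622. The shares of all genes tested were 2.04% called higher and 2.11% lower, and 16.2% apart upward and 30.1% downward. S100A11 rose from 414 and 344 to 1084 and 935 FPKM (log2 fold change 1.41, limma adjusted p = 0.0220), SYNM (synemin, a filament protein that pairs with vimentin) from 0.683 and 1.62 to 8.93 and 6.45 FPKM (2.03, limma adjusted p = 0.0258), and LMNA, which encodes lamins of the nuclear envelope, from 57.9 and 64.5 to 168 and 131 FPKM (1.27, limma adjusted p = 0.0257). S100A6, of the same cluster on chromosome 1, was at 219 and 204 FPKM in the Control libraries, against 229.8 and 193 FPKM in HAND1_OE.

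**Figure D4:**
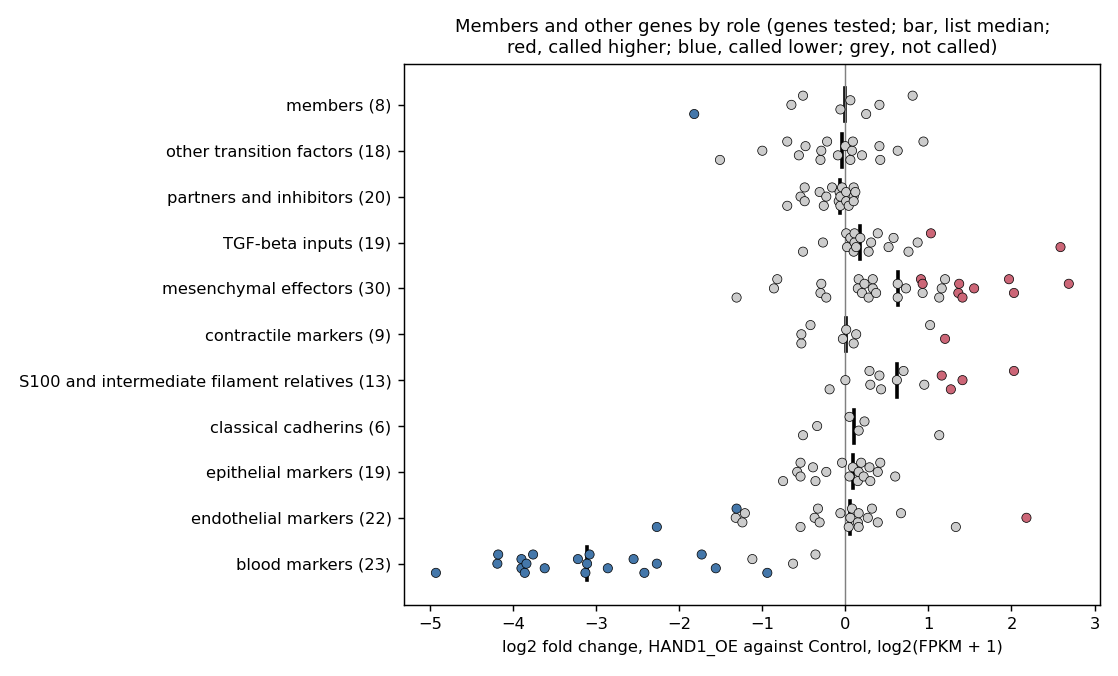
Log2 fold change (HAND1_OE against Control, log2(FPKM + 1)) of each gene tested, by list, with the number tested in brackets and a bar at the list's median; red points were called higher, blue lower and grey not called. The members centre on 0 with S100A4 far to the left, mesenchymal effectors lie to the right (median 0.63), and blood markers lie far to the left (median -3.11).

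Endothelial and epithelial genes, the identities that such a transition reduces, were set beside these values. Of 22 endothelial markers 1 was called higher and 2 lower, and the median was 0.0501. By limma 4 upward and 5 downward had an unadjusted p under 0.05, and 4 lay apart upward and 8 downward. Over all genes tested 2.04% were called higher and 2.11% lower, and 16.2% lay apart upward and 30.1% downward. VWF rose (log2 fold change 2.18, limma adjusted p = 0.0338), and CLDN5, an endothelial tight junction protein (-2.27, limma adjusted p = 0.00700), and SOX18, an endothelial transcription factor (-1.31, limma adjusted p = 0.0121), fell. PECAM1 (0.06, 95% interval -0.73 to 0.86) and CDH5 (0.16, 95% interval -0.25 to 0.57) were not called. The cells were selected for CD31, so the level of PECAM1 cannot show whether identity was lost. Of 19 epithelial markers tested 0 were called (limma, 0 upward and 1 downward at an unadjusted p under 0.05), with a median of 0.0899.

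Blood cells also express CD31, and most of their markers fell, as S100A4 did. Of 23 blood markers tested all 23 had a negative fold change and 20 were called lower. Over all genes tested 8959 of 14622 were negative and 2.11% were called lower. The list was chosen with earlier results of these data known. Its largest falls were those of GYPB (-4.93), a glycophorin, HBE1 (-4.19), the embryonic globin, and ALAS2 (-4.18), the erythroid enzyme of heme synthesis. Levels summed over the 25 listed blood markers were 842 and 1124 FPKM in Control and 152 and 124 FPKM in HAND1_OE, and endothelial markers summed to 5203 and 4615 FPKM against 4640 and 4505 FPKM. PTPRC (CD45) was at or under 0.0227 FPKM in every library, and SPN (CD43) went from 18.9 and 21.1 to 1.92 and 0.974 FPKM. VIM, which early blood cells also make, did not fall with them. It went from 1480 and 1377 FPKM in Control to 1944 and 1852 FPKM in HAND1_OE and was not called. In bulk RNA fewer blood cells and less RNA per cell cannot be told apart, and the part of the blood markers in the fall of S100A4, and in the lower ZEB2 values that did not pass the test, was not tested.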

How the data were processed

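RNA from CD31+ cells (2 Control and 2 HAND1_OE libraries, grouped by sample title) was made into libraries with an Illumina TruSeq kit. The authors deposited 1 table of 58365 rows whose unit it does not state. FPKM is assumed for these deposited values, from the axis of the study's plot. Tools named by the submitters' processing notes are BWA, Bowtie and RSEM, with build hg19, but row coordinates match GRCh38: of 58229 genes kept (45 Y copies of pseudoautosomal genes and 91 further rows of shared gene IDs were left out), 55605 matched GENCODE 29 by versioned ID and 55583 of these in chromosome, start and end. Coordinates are given counted from 1. FPKM hold no counts, so no interval for counting error was computed and precision rests on 2 libraries per group.

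Values were tested as log2(FPKM + 1) in R 4.3.3, two-sided, by limma 3.58.1 (empirical Bayes, trend over mean level), with Benjamini-Hochberg adjustment over all 14622 genes that had at least 1 FPKM in at least 2 libraries. The fit was first tested on simulated data with known changes. Lists were matched by symbol, 2 of 212 entries by an older one. KRT8, KRT18, CDH1, CDH5 and CDH11 are each in 2 lists, and CDH2 is also in the cadherin list. Named genes are all members, HAND1, CDH1, CDH5, PECAM1, FN1, ACTA2, TAGLN and up to 3 called genes with the largest change in each list. Others (CDH11, SMAD7, TGFB1, TGFBR2, SPARC, MMP14, COL1A2, NT5E, S100A3, S100A6, MYH11, PTPRC, SPN and antisense genes) were chosen after their values were seen. Members and lists were chosen with earlier results of these data known. RefSeq promoter windows (GRCh38.p14) were searched for E-boxes, and proteins were not used here. Alternatives were another pseudocount, 2 filters, 3 scalings, no trend, a replicate block, each library left out and a fold change of at least 2. Member values had 1 row per symbol, so summing rows changed nothing.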

Additional observations from a re-analysis of the deposited data

How the results depend on the processing

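The fall of S100A4 kept its direction in all 12 alternatives (log2 fold change -1.94 to -1.70) and passed in 11. With all 29860 genes above 0 tested, 0 members and 0 genes were called lower or higher (limma, S100A4 adjusted p = 0.153), while 1458 genes upward and 2352 downward, and 2 members each way, had an unadjusted p under 0.05. Called genes otherwise moved by over 1.5 times with the replicate block (597 higher and 712 lower) and when a Control library was left out: 134 to 266 were higher and 137 to 309 lower over the libraries left out, the lowest without Control replicate 2 (134 and 137) and then without Control replicate 1 (141 and 144). SNAI1 stayed positive in all 12 (0.70 to 0.92), so 1 member was called higher under quantile normalization, median-ratio scaling and the replicate block (limma adjusted p = 0.0325). ZEB2 stayed negative in all 12 (-0.83 to -0.46) and passed with the replicate block alone (0.0486), which made 2 members called lower. The cause was not tested. Same-numbered libraries deviated together (Pearson r = 0.383 over 14622 genes), but the labels do not say what a number shares, and with 2 pairs the numbers were not taken as pairs. TWIST1 turned positive under quantile normalization (0.04), median-ratio scaling (0.03) and without single libraries, between -0.22 and 0.10, and SNAI2 ran from -0.31 to 0.44, ZEB1 from 0.01 to 0.48 and CDH2 from -0.93 to -0.09 without single libraries. Members apart between groups numbered 2 to 3 upward and 2 to 4 downward without single libraries (4 when Control replicate 1 or HAND1_OE replicate 2 was left out). With all genes above 0 tested they numbered 3 upward, where TWIST2 enters. With a library left out, groups lie apart more easily. The share over all genes was not computed in these settings, so nothing is read from these counts. The members' median lay between -0.0968 and 0.0987.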
